A study of Mus musculus with 6 samples.

Results

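Keratins are the intermediate filament proteins of epithelial cells, and their transcripts were measured here in RNA from the apical portion of mouse first mandibular molars, labelled as dental mesenchyme and pulp, at postnatal day 7.5. The members were all rows of the deposited table whose symbol is Krt followed by a number and at most 1 letter, with the keratin-associated genes left out. This gave 50 of the 25899 genes in the table. The rule is a pattern of symbols and uses no measured value. Of the 50, 20 reached a mean of 1 RPM (reads per 1000000 mapped reads) over the 6 libraries and were tested. Another 17 had at least 3 reads in some library but a lower mean, 5 had 1 or 2 reads at most in any library, and 8 had no read at all.

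The study compared 3 mutants, Gli1-CreER;Bmpr1afl/fl, with 3 littermate controls, Bmpr1afl/fl. Bmpr1a encodes a receptor for bone morphogenetic proteins (BMPs), and its loxP-flanked alleles were present in every animal. The Gli1-CreER driver, carried by mutants alone, makes a tamoxifen-dependent recombinase in Gli1-expressing cells, so deletion is possible only in those cells and their descendants. The tamoxifen schedule, whether controls received it, and the number of animals or teeth in a library are absent from the labels. Controls 1 and 2 came from litter 1 with mutants 1 and 2, while control 3 and mutant 3 came from litter 2, on a mixed C57Bl6/129S6/SvEvTac background. Because separate animals are not stated per library, p-values measure only the spread between these libraries. Within each genotype that spread includes a difference of litter, and the rest may be technical. Bmpr1a itself was at 121, 139 and 149.5 RPM in the controls and 107.6, 120.2 and 111 RPM in mutants, so every mutant lay below every control. Its log2 change was -0.27 (SE 0.14), with a limma unadjusted p of 0.0910 and an adjusted p of 1.00 (Benjamini-Hochberg). The count covers the whole gene, and reads from the deleted part were not separated.

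A keratin filament is built from pairs of a type I and a type II protein, and the pair in use marks the kind of epithelium. Krt5 and Krt14 form the filaments of the basal layer of stratified epithelia, Krt8 and Krt18 those of simple epithelia, Krt1 and Krt10 those of cornifying layers, and Krt4 and Krt13 those of moist mucosa. A developing molar holds an enamel organ, whose inner layer becomes the ameloblasts that secrete enamel matrix, and at its apical edge the epithelial root sheath. Mesenchymal cells mainly use vimentin instead. In the mouse the type I genes lie together on chromosome 11 and the type II genes, with the type I gene Krt18, on chromosome 15. In the GENCODE vM21 annotation of GRCm38, the assembly also called mm10, 27 members lay on chromosome 11 and 23 on chromosome 15.

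Promoter windows were available from RefSeq (GRCm38.p6) for 34 of the 50 keratins, 35 windows in all because 1 gene had a pair of starts, each running from 250 bases before to 50 bases after the annotated start. The 3 printed here belong to Krt5, the most abundant keratin in these libraries, and to Krt75 and Krt73, 2 type II genes of the chromosome 15 cluster whose shares of the keratin reads differed between libraries. Capitals mark 3 motifs searched on both strands. The first is TATAAA, a core promoter motif. The second is its variant ATAAAAG. The third is the motif known as the GC box, GGGCGG, which reads CCGCCC when it lies on the other strand.
Krt5 promoter, chr15:101712856-101713155, minus strand: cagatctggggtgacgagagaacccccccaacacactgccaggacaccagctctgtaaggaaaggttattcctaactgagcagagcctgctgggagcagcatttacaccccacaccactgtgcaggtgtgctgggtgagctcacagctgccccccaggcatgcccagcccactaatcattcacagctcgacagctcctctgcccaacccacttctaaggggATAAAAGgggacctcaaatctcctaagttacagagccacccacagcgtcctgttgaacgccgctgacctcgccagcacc
Krt75 promoter, chr15:101573855-101574154, minus strand: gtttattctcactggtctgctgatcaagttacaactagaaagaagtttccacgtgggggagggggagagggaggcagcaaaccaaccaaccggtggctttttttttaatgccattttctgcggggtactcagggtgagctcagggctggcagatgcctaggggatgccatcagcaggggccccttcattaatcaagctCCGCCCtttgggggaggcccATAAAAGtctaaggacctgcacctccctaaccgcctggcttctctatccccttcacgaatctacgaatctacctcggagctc
Krt73 promoter, chr15:101802311-101802610, minus strand: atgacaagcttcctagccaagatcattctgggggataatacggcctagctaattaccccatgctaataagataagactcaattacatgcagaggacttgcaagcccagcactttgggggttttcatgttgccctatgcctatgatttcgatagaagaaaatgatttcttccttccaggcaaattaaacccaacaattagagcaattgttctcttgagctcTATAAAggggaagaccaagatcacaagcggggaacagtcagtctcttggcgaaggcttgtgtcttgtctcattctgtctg
The Krt5 window holds ATAAAAG from 29 to 23 bases before the start, and the Krt75 window holds it from 32 to 26 bases before. The Krt73 window holds TATAAA from 30 to 25 bases before its start. TATAAA was found in 18 of the 35 keratin windows and in 13.6% of all 32851 windows, and ATAAAAG in 13 and 5.42%. The letters GGGCGG were found in 2 keratin windows, those of Krt7 and Krt75, and in 35.7% of all windows. The first motif and its variant share letters and can overlap, and a match describes the letters only.

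The libraries differed first in how much keratin RNA they held. The summed level of the 50 keratins was 1843, 255 and 3115 RPM in controls 1, 2 and 3 and 3063, 1253 and 4799 RPM in mutants 1, 2 and 3. Control 2 was the lowest and mutant 3 the highest, an 18.8-fold range, which was 3.83-fold without control 2. Singly, 16 of the 20 tested keratins had a range of at least 5-fold, beside 6.23% of all tested genes, and 7 did without control 2, beside 4.27%. Among the 20 tested keratins, 17 were lowest in control 2 and 13 highest in mutant 3. Over all 14444 tested genes, 14.4% were lowest in control 2 and 23.8% highest in mutant 3. Vim, encoding vimentin, lay between 1525 and 2487 RPM, and the 8 genes of the dental mesenchyme list summed to 12132 to 33680 RPM, so transcripts of the labelled tissue were present in every library. The deposited values were whole multiples of 1 read, and the libraries held 15916045 to 20609420 reads on genes, of which 7284 to 114511 were keratin reads. In such bulk samples fewer epithelial cells and less keratin RNA per cell cannot be told apart.

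**Figure D1:**
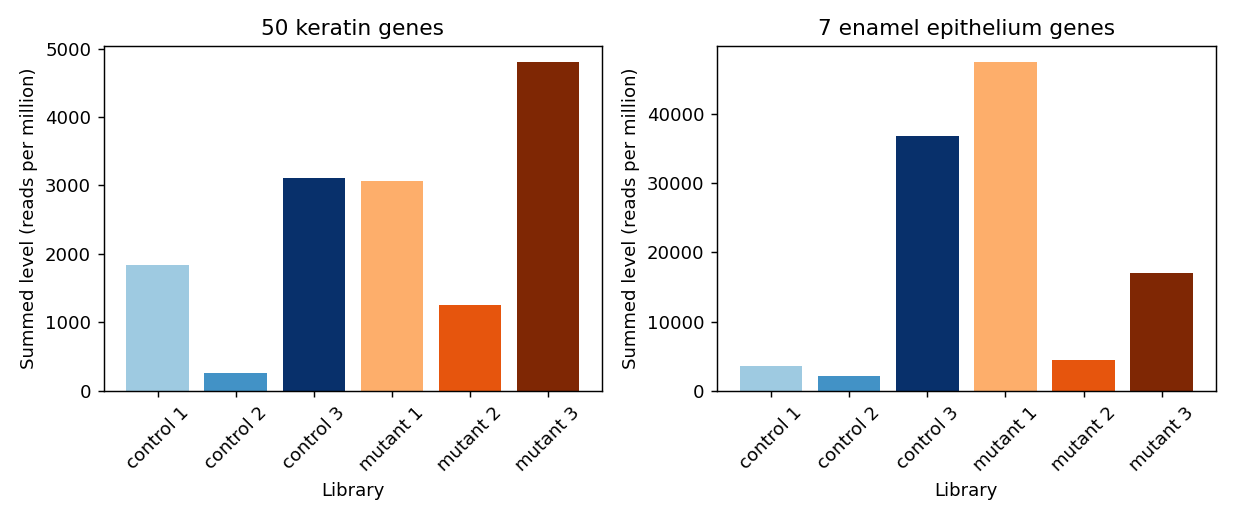
Summed level in RPM (vertical axes, from 0) of the 50 keratin genes (left) and of 7 enamel epithelium genes (right) in each of the 6 libraries, 1 bar per library. Keratins were highest in mutant 3 at 4799 RPM, while the enamel genes were highest in mutant 1 at 47440 RPM.

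The enamel epithelium list (Amelx, Ambn, Enam, Amtn, Odam, Klk4 and Mmp20, which encode enamel matrix proteins and the proteases that process them) followed another order. Its sum was 3562, 2143 and 36754 RPM in the controls and 47440, 4454 and 17083 RPM in the mutants. The sum was thus far higher in control 3, mutant 1 and mutant 3 than in the other 3 libraries, as were Amelx, Ambn, Enam, Amtn and Odam singly. The proteases did not share this order: in mutant 3 Klk4 was at 4.02 RPM and Mmp20 at 37.0 RPM, the lowest of all libraries for both, and Mmp20 in control 3, at 109 RPM, was below control 2 at 115 RPM. The enamel sum was between 1.93 and 15.5 times the keratin sum, an 8.01-fold spread between libraries, with control 1 lowest and mutant 1 highest. These are RPM, which are not divided by length, so the ratio is compared between libraries only. General epithelial genes lay closer to the keratins: all 10 tested genes of the pan-epithelial list were lowest in control 2, beside 14.4% of all genes. Among them was Trp63, a transcription factor of stratified epithelia, at 20.01 RPM there and 63.2 to 220.5 RPM elsewhere. Of the 6 genes on the dental epithelium and root sheath list, 4 were lowest in control 2, but Sp6 and Igfbp5 were not. Sp6 was at 165 RPM there, within 89.1 to 318 RPM over the libraries. Igfbp5 was at 2252 RPM there, within 1986 to 2603 RPM.

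Krt5, Krt14 and Krt17 made up 88.4% to 94.6% of the keratin reads of every library. Divided by exon length (GENCODE vM21), their mean levels were 466, 361 and 351 RPM per kb, and the next, Krt6a, stood at 19.9 RPM per kb. Krt5, the basal type II keratin (chr15:101707070-101712898), was at 832, 95.4 and 1345 RPM in the controls and 1267, 529.9 and 2076 RPM in mutants. Krt14, its type I partner (chr11:100203162-100207548), was at 436, 81.5 and 990.1 RPM in the controls and 856, 289 and 1154 RPM in mutants. For both genes control 2 lay below all other libraries and the genotypes overlapped. The ratio of Krt5 to Krt14 had a 1.63-fold range over libraries in which Krt5 itself ranged 21.8-fold and Krt14 14.2-fold. Krt17, a type I keratin of hair follicles, teeth and other ectodermal appendages, was at 425, 48.2 and 614 RPM in the controls and 673, 318 and 1186 RPM in mutants, in an order close to that of Krt5.

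Krt15, the other basal keratin, did not keep a fixed proportion to Krt5 and Krt14. It was at 17.1, 0.140 and 12.8 RPM in the controls and 13.7, 11.2 and 59.7 RPM in mutants. The control 2 value rests on 4 reads. Mutant 3 stood far above the others, and no genotype lay wholly above the other. As a share of keratin reads Krt15 was 1.24% in mutant 3 (exact Clopper-Pearson 95% interval 1.18% to 1.31%), 0.927% in control 1 and 0.895% in mutant 2, against 0.411% in control 3 and 0.447% in mutant 1. The lowest share was that of control 2, 0.0549% (0.0150% to 0.141%). Such intervals account for counting error alone, and no molecular identifiers are named in the labels.

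Krt75 and Krt73, both type II keratins known from the hair follicle, did not follow the same order over the libraries. Krt75 (chr15:101563345-101573904), a keratin of the companion layer that also occurs in the enamel organ, was at 1.81, 0.0350 and 20.5 RPM in the controls and 13.9, 1.23 and 19.2 RPM in mutants. Control 3, mutant 1 and mutant 3, the 3 libraries with the high sums and high Amelx, lay between 13.9 and 20.5 RPM, and the other 3 at 1.81 RPM or less. Krt73 (chr15:101793308-101802346), a keratin of the inner root sheath of hair, was at 10.8 and 1.55 RPM in controls 1 and 3, had no read in control 2, and was at 6.43, 7.05 and 10.7 RPM in mutants. A count of 0 in control 2 allows up to 0.105 RPM, that is 3 reads. Mutant 3 was high and control 2 lowest for both genes, while control 3 was highest for Krt75 and lowest but for control 2 for Krt73.

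In shares of keratin reads the order also differed. Krt75 took 0.657% of them in control 3 (interval 0.605% to 0.713%), 0.454% in mutant 1 and 0.399% in mutant 3, but 0.0982% in control 1 (0.0740% to 0.128%) and 0.0982% in mutant 2. Krt73 took 0.584% in control 1 (0.523% to 0.651%) and 0.563% in mutant 2, but 0.0499% in control 3 (0.0362% to 0.0669%), 0.210% in mutant 1 and 0.223% in mutant 3. In control 2 both were low, Krt75 at 0.0137% (up to 0.0765%) and Krt73 without a read (up to 0.0506%). Leaving out control 2, the Krt75 share ranged 6.69-fold and the Krt73 share 11.7-fold, and in RPM the ranges were 16.6-fold and 6.93-fold. Each set of high libraries held both genotypes. The difference between libraries was larger than counting error, but the labels give no group that matches it, so it has no test. None of the 50-base words of the Krt75 transcript, and 1.32% of those of Krt73, occur in another annotated gene. Exons of Krt75, as of Krt5, Krt6a, Krt6b, Krt7, Krt8, Krt10 and Krt80, overlap a predicted gene on the opposite strand, and whether the counting used strand is not given in the sources used here.

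**Figure D2:**
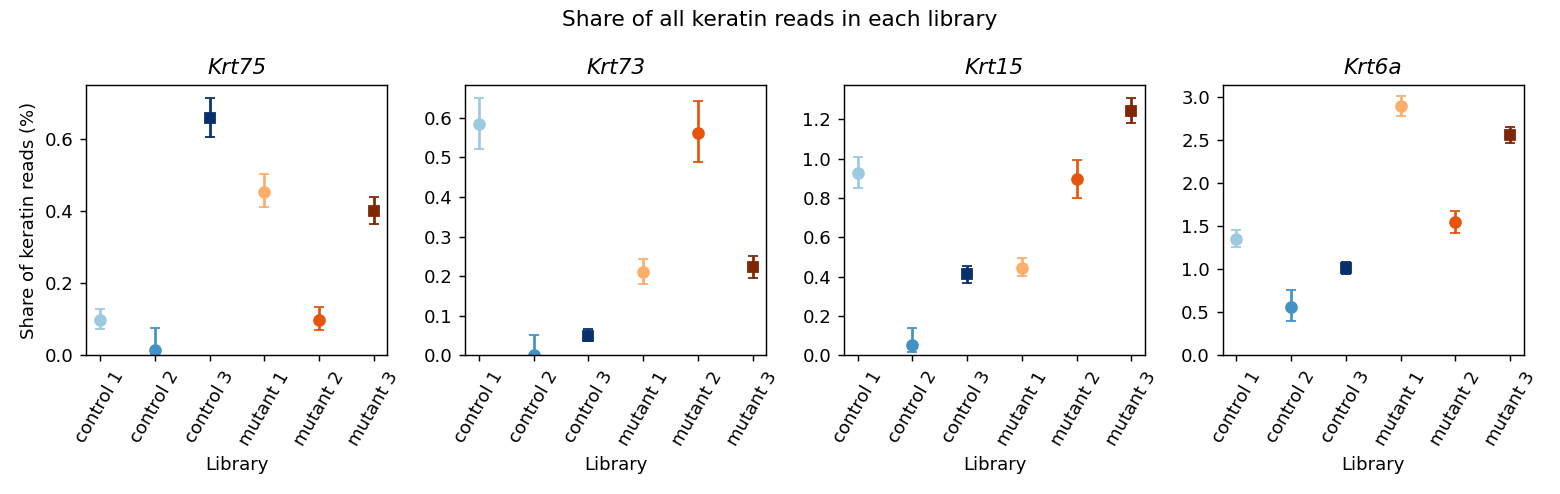
Share of all keratin reads in percent (vertical axes, from 0) taken by Krt75, Krt73, Krt15 and Krt6a in each of the 6 libraries, with exact 95% binomial intervals for counting error as bars. Circles are litter 1 and squares litter 2. Krt75 was highest in control 3 and Krt73 in control 1, and the 3 Krt6a points of the mutants, 1.55% to 2.89%, lie above the 3 of the controls, 0.563% to 1.35%.

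Krt6a, Krt6b and Krt16 are keratins induced in wounded and rapidly renewing epithelium, and Krt6a also belongs to hair and nail. Krt6a (chr15:101689910-101694307) was at 24.9, 1.43 and 31.5 RPM in the controls and 88.6, 19.4 and 123 RPM in mutants. Krt6b was at 9.94, 0.909 and 13.4 RPM in the controls and 29.0, 8.02 and 39.2 RPM in mutants. For both, mutants 1 and 3 lay above every control while mutant 2 lay among the controls. Krt16 was at 12.4, 2.55 and 32.1 RPM in the controls and 29.3, 9.52 and 36.6 RPM in mutants, with overlap. About 39.9% of the 50-base words of the Krt6a transcript also occur in Krt6b, 44.5% of those of Krt6b in Krt6a, and 37.6% of those of Krt16 in other genes. How such reads were counted is not given in the sources used here, so the single values are uncertain.

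Relative to the keratin sum, Krt6a and Krt6b were higher in all 3 mutants than in any control. Krt6a took 1.35%, 0.563% and 1.01% of keratin reads in controls and 2.89%, 1.55% and 2.56% in mutants, with means of 0.975% ± 0.396 and 2.33% ± 0.701 (SD, n = 3 each). The difference in means, 1.36 percentage points, was between 1.08 and 1.75 when any single library was left out. Krt6b took 0.539%, 0.357% and 0.430% in controls and 0.947%, 0.640% and 0.817% in mutants. A two-sided exact permutation test gave p = 0.1 for each, the smallest value that 3 against 3 libraries allow, so the design cannot place either under 0.05. The share was looked at after the levels were known. Of the 20 tested keratins these 2 were the ones whose shares did not overlap between genotypes, and among the less abundant keratins the shares of Krt19, Krt27, Krt28 and Krt35, 4 of the 22 with a read but a mean under 1 RPM, did not overlap either, beside 0.66% of all genes in that range. These 4 had no read in control 2, which allows a share of up to 0.0506%. Krt27, Krt28 and Krt35 lay below that limit in every mutant, and Krt19 did in mutant 2, at 0.0345%. Krt27 had 1 read in control 1 and 1 in mutant 2. For these 4 the separation is thus within counting error. Dividing every tested gene by the keratin sum in the same way left mutants wholly above controls for 0.0554% of 14444 genes and wholly below for 0.935%. Undivided, these shares were 0.976% and 1.67%. The division puts the keratin sum into every value, and that sum was higher in mutants on average, by 1.22 on the log2 scale. Other genes are thus lowered in mutants, so 0.0554% and 0.66% are low partly by construction. They do not measure how unusual the keratin shares are. Krt16, the type I gene induced with Krt6a, took 0.902% ± 0.199 of keratin reads in controls and 0.827% ± 0.114 in mutants (SD, n = 3 each). The cornifying epithelium list summed to 21.0, 16.6 and 74.3 RPM in the controls and 26.4, 20.2 and 31.9 RPM in mutants, and the part of other epithelia in the Krt6a share was not tested.

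The test of genotype, mutant minus control on log2(RPM + 1) with limma over all 14444 genes, called no keratin. The smallest Benjamini-Hochberg adjusted p of a keratin was 1.00, so 0 of 20 passed 0.05 by limma, beside 0% of all genes, and 1 had an unadjusted p under 0.05 beside 1.05% of all genes. All 20 had a positive change, with a median of 1.05 on the log2 scale, beside 45.6% positive and a median of -0.01 over all genes. Without control 2 the median was 0.28, and 18 of 20 were positive. Without mutant 3 the median was 0.65. Groups overlapped for all 20 keratins, whereas mutants were wholly higher for 0.976% of all genes and wholly lower for 1.67%, together 2.64%. The summed keratin level was 1738 ± 1433 RPM in the controls and 3038 ± 1773 RPM in mutants (SD, n = 3 each), a log2 difference of 1.22 against SDs of 1.90 and 0.986, and of 0.14 without control 2. It was 1.95 without control 3 and 0.79 without mutant 3.

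The keratin under an unadjusted p of 0.05 was Krt36, a hard keratin of hair, nail and tongue papillae. It was at 1.58 and 0.494 RPM in controls 1 and 3, had no read in control 2, and was at 2.34, 1.497 and 3.65 RPM in mutants. Mutant 2 lay below control 1, so the groups overlapped. By limma its change was 1.11 on the log2 scale (SE 0.39) with an unadjusted p of 0.0253, and 1.00 after Benjamini-Hochberg adjustment. Without control 2 the change was 0.79 with an unadjusted p of 0.0708 by limma. The unadjusted p was 0.055 without control 3, 0.0696 without mutant 1 and 0.0835 without mutant 3, and was 0.00512 without control 1 and 0.0197 without mutant 2.

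On the log2(RPM + 1) scale the largest changes belonged to Krt6a, at 2.26 (SE 1.08, unadjusted p 0.0736), Krt15, at 1.75 (SE 1.10), and Krt6b, at 1.73 (SE 0.85, unadjusted p 0.0814). This order depends on the scale: with a pseudocount of 0.1 Krt73 was largest at 2.71 and Krt6a stood at 2.48, and with voom Krt73 stood at 3.52, Krt36 at 3.23, Krt15 at 2.62 and Krt6a at 2.52. Without control 2 the changes were 1.07 for Krt6a, 0.49 for Krt15 and 0.82 for Krt6b, and without mutant 3 that of Krt15 was 1.03. With litter as a block the folds were the same, and the unadjusted p was 0.0470 for Krt6a, 0.0478 for Krt6b and 0.0283 for Krt36 by limma, beside 2.02% of all genes under 0.05. The count of keratins under an unadjusted p of 0.05 was 5 without control 1, 0 without control 2, 4 without control 3, 0 without mutant 1, 5 without mutant 2 and 0 without mutant 3, beside 0.471% to 2.25% of all genes. With the log2 keratin sum added as a covariate, chosen after the data were seen, the Krt6a change was 0.87 (SE 0.25, unadjusted p 0.00813) and that of Krt6b 0.64 (SE 0.24, unadjusted p 0.0287), with adjusted p 1.00 for both by limma. Krt36 was the third under 0.05 in that fit, beside 3.14% of all genes, and 14 of the 20 keratins were positive with a median of 0.22. Values close to those of Krt6a and Krt6b, with larger standard errors, were found for Krt73 at 0.87 (SE 0.68), Krt222 at 0.67 (SE 0.40), Krt7 at 0.66 (SE 0.32) and Krt79 at 0.64 (SE 0.50), and the lowest was Krt75 at -0.28 (SE 0.63).

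**Figure D3:**
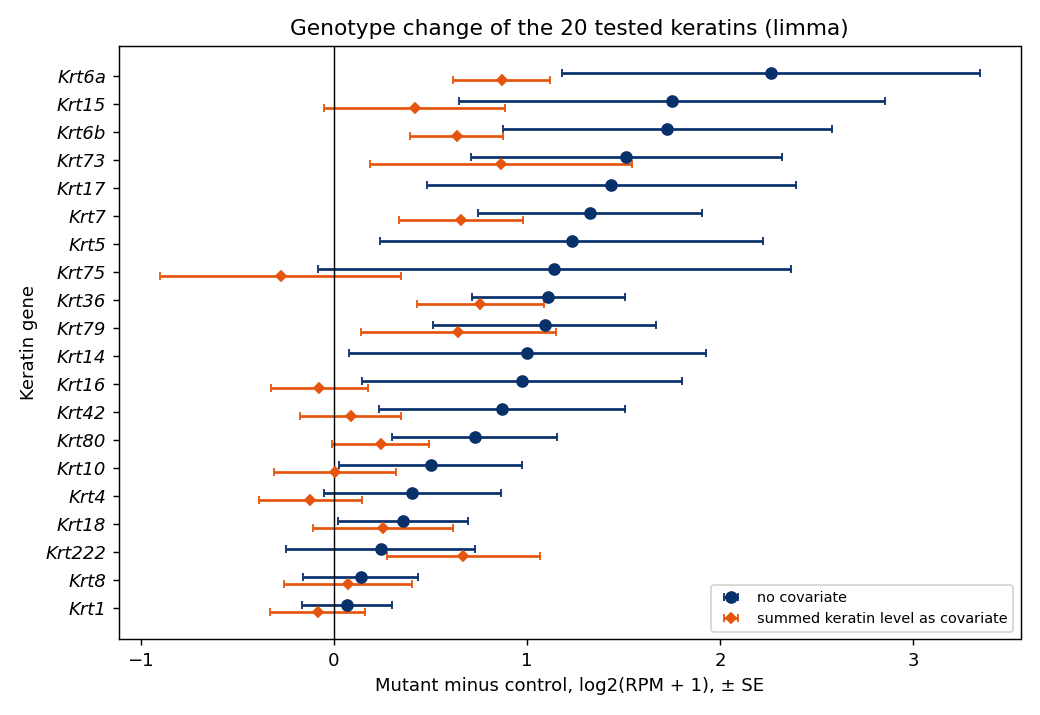
Mutant minus control change of the 20 tested keratins on the log2(RPM + 1) scale (horizontal axis) with standard errors, from limma without a covariate (circles) and with the summed keratin level as a covariate (diamonds, not drawn for Krt5, Krt14 and Krt17, which make up most of that sum). All circles lie right of 0, from 0.07 for Krt1 to 2.26 for Krt6a, and the standard error is smaller with the covariate for 17 of the 20 keratins, all but Krt1, Krt8 and Krt18.

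Krt8, Krt18, Krt1 and Krt10, keratins of simple and cornifying epithelium, varied less between libraries than the basal ones. Krt8, the simple type II keratin, was at 3.95, 2.76 and 2.22 RPM in the controls and 2.31, 2.86 and 5.28 RPM in mutants. Krt18, its partner, was at 11.7, 4.65 and 5.61 RPM in the controls and 6.89, 11.4 and 9.18 RPM in mutants. Their ranges were 2.37-fold and 2.51-fold, and in the library poorest in Krt5, control 2, they together held 2.91% of the keratin reads against 0.252% in control 3. Of the Krt8 transcript 26.9% of the 50-base words also occur in the pseudogene Krt8-ps, so its count is uncertain. Krt7, another simple type II keratin, was lowest in control 2 and had a wider range: 4.05, 0.315 and 2.65 RPM in the controls and 8.39, 2.83 and 9.64 RPM in mutants, with a change of 1.33 (SE 0.58, unadjusted p 0.0554 by limma). Without control 2 that change was 0.76 (unadjusted p 0.141).

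Krt10, a type I keratin of cornifying layers, was at 27.7, 6.09 and 17.7 RPM in the controls and 24.7, 17.8 and 21.4 RPM in mutants, a 1.57-fold range without control 2. Its usual partner Krt1 lay between 1.32 and 2.33 RPM, with control 2 at 1.33 RPM and control 1 lowest. Of the 11 genes on the cornifying epithelium list, Ivl, Flg, Sprr1a, Sprr1b and Lce1c had no read in any library. The 3 that averaged 1 RPM or more were Dsg1a at 7.95 to 67.5 RPM, Sbsn at 2.40 to 8.98 RPM and Lor at 0.595 to 5.28 RPM, and the other 3 were lower. Krt80, a type II keratin of differentiating epithelia, lay between 3.08 and 15.7 RPM, and Krt79, of the hair canal, between 0.140 and 7.04 RPM.

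Most keratins of moist mucosa and of the hair shaft were low or not detected. Krt4, the mucosal type II keratin, was at 1.18, 0.0699 and 1.80 RPM in the controls and 1.28, 0.632 and 3.10 RPM in mutants. Its partner Krt13 reached at most 1.01 RPM and Krt76, of the hard palate and gingiva, at most 1.81 RPM. Among the 14 hair shaft keratins in the table, 7 had no read in any library. Krt35, a hair cortex keratin, was at 0.922 RPM in mutant 3 and at most 0.233 RPM elsewhere, and Krt83 reached 0.249 RPM. Of the inner root sheath genes below 1 RPM on average, Krt71 reached 0.587 RPM and Krt28 0.888 RPM. Krt19 and Krt20, of simple epithelium, reached 2.51 and 0.333 RPM, and Krt77 and Krt9, of epidermis, 2.10 and 0.494 RPM. Of the 22 keratins with a read but a mean under 1 RPM, 3 were higher in every mutant than in any control, beside 2.91% of all genes in that range, and 0 were lower. They were Krt35, Krt28 and Krt27, another inner root sheath keratin, singled out after their values were seen. Krt28 had 7, 0 and 7 reads in the controls and 25, 8 and 19 in mutants, and Krt35 had 3, 0 and 3 reads and 6, 7 and 22. Krt27 had 1, 0 and 0 reads in the controls and 11, 1 and 6 in mutants, so control 1 and mutant 2 differed in depth alone. Counts this low were not tested with the filter in place.

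Krt42, a type I gene beside Krt17 on chromosome 11, lay between 0.280 and 7.46 RPM and was lowest in control 2. Krt222, a keratin-like gene, was not low in control 2: it was at 3.98, 5.14 and 2.19 RPM in the controls and 5.83, 8.12 and 1.59 RPM in mutants, with the 2 litter 2 libraries lowest.

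**Figure D4:**
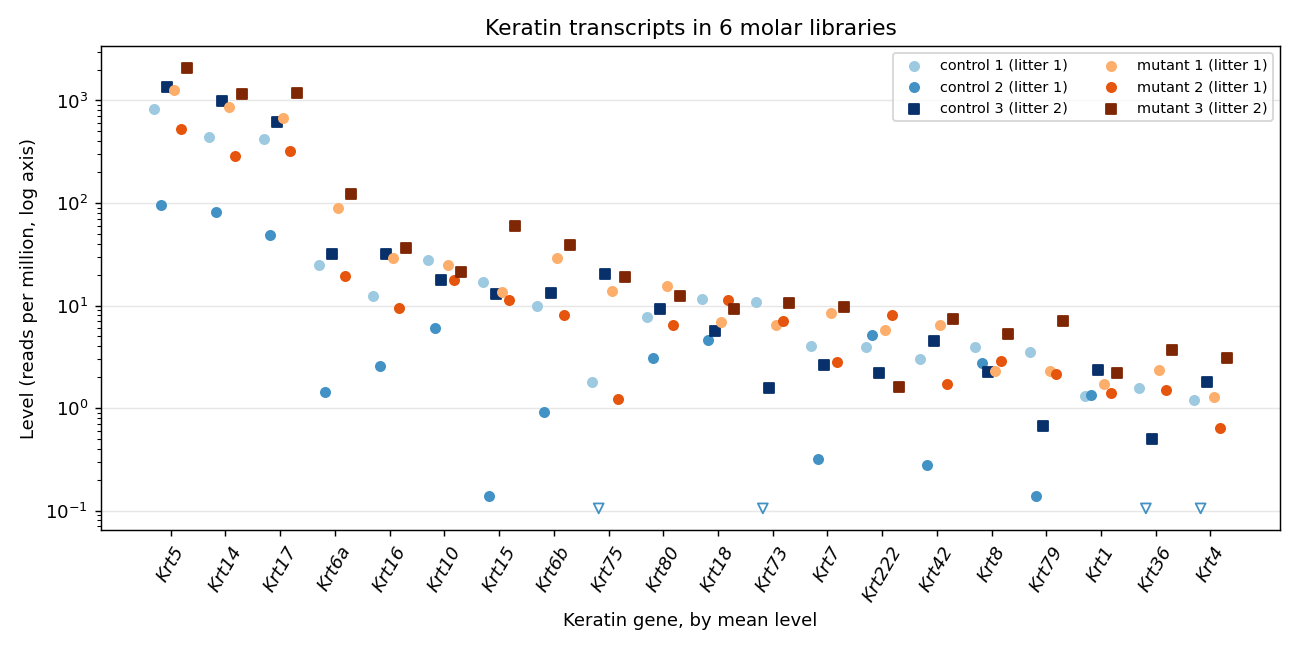
Level of each of the 20 tested keratins in RPM (vertical axis, logarithmic) in the 6 libraries, ordered by mean level. Circles are litter 1, squares litter 2, and open triangles mark values under 3 reads, drawn at the 3-read level of that library. Control 2 is the lowest point for 17 of the 20 genes, and Krt8, Krt18 and Krt1 spread least.

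Litters were compared with genotype as a covariate, litter 2 (2 libraries) minus litter 1 (4 libraries). By limma with Benjamini-Hochberg adjustment 0 of 20 keratins passed 0.05, beside 0.872% of all genes, and 5 had an unadjusted p under 0.05 beside 20.9% of all genes, a share near that background. Krt75 was higher in litter 2 by 2.73 (SE 0.84, unadjusted p 0.0159), with both litter 2 libraries at 19.2 RPM or more and litter 1 at 13.9 RPM or less. Krt222 was lower by -1.20 (SE 0.26, unadjusted p 0.00293, adjusted p 0.0882 by limma), with no overlap. Krt14, Krt16 and Krt4 were the other 3, each higher in litter 2. In all, 6 keratins were higher and 1 lower in litter 2 without overlap, beside 15% and 20.5% of all genes. The odontoblast list (Dspp, Dmp1, Nes and Phex) was also uneven, at 1307 and 311 RPM summed in the litter 2 libraries and 4879 to 8149 RPM in litter 1. Dspp, Nes and Phex were each lower in both litter 2 libraries than in litter 1, but Dmp1 was highest in control 3 at 88.7 RPM and at 15.2 RPM in mutant 3, against 5.33 to 18.9 RPM in litter 1. Their part in the litter result was not tested. The count of 5 was 15 without control 1, 6 without control 2, 7 without mutant 1 and 2 without mutant 2, beside 12.1% to 29.4% of all genes. Leaving out control 3 or mutant 3 leaves 1 library in litter 2, so no count is given for those fits. With Benjamini-Hochberg adjustment by limma, Krt15 passed without control 1 (2.79, adjusted p 0.0400) and Krt75 without mutant 1 (3.45, adjusted p 0.0482), beside 0.568% and 2.57% of all genes.

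Litter 2 gave 1 library per genotype, so the design could hardly show a genotype change that differed between litters. The litter-by-genotype term passed Benjamini-Hochberg adjustment by limma for no keratin and for 0% of all genes, and had an unadjusted p under 0.05 for 1 keratin, Krt8, beside 5.06% of all genes. The Krt8 difference was -0.27 within litter 1 and 0.96 within litter 2. That of Krt6a was 2.43 and 1.93, and that of Krt75 1.76 and -0.09.

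Most genes that anchor keratin filaments were low in the same library. Desmosomes and plakins tie keratin to the cell membrane. Of 14 tested genes on that list 11 were lowest in control 2, beside 14.4% of all genes. Dsp, encoding desmoplakin, was at 222, 37.8 and 330 RPM in the controls and 384, 151 and 499.6 RPM in mutants. By genotype 12 of the 14 had a positive and 2 a negative change, with a median of 0.85, none passed adjustment by limma, and 1 had an unadjusted p under 0.05, beside 45.6% positive and 1.05% under 0.05 over all genes. Without control 2, 11 were positive, the median was 0.19 and none was under 0.05. The 1 gene was Dsg3, a desmosomal cadherin, with no read in control 2, 2.501 and 2.01 RPM in controls 1 and 3 and 5.97, 2.46 and 8.59 RPM in mutants, a change of 1.49 (SE 0.56, unadjusted p 0.0322). Without control 2 it was 0.92 (unadjusted p 0.0680). All 6 hemidesmosome genes were also lowest in control 2. Of 7 tested genes for other intermediate filaments 1 was, a share near that of all genes. Of 9 listed regulators and binders of keratins, 6 were lowest in control 2. By genotype 6 of these 9 had a positive and 3 a negative change, and none had an unadjusted p under 0.05 by limma.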

How the data were processed

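RNA was sequenced from 6 libraries, and the authors deposited 1 table of log2 values for 25899 gene symbols, titled normalized RPKM. TopHat2 and mm10 are named in the submitters' processing notes, and the counting program and annotation are not given in the sources used here. Raised as powers of 2, 100% of the values were whole multiples of 1 step per column (within 0.02 of a read up to 10000 reads, and in proportion above), so they were treated as log2 of RPM not divided by length. The column minimum, 0.9 of a step, was read as no read. Per library, 3 reads were worth 0.0987 to 0.126 RPM. No 2 libraries agreed within counting error (chi-square per degree of freedom at least 20.1).

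The 14444 genes averaging 1 RPM or more entered a linear model of log2(RPM + 1), fitted by limma 3.58.1 under R 4.3.3 (eBayes with trend, two-sided, Benjamini-Hochberg over all tested genes). This scale understates changes of low genes. The planned test assumed RPKM. The limma fit was tested on counts simulated without a litter difference, so that test does not cover the spread between libraries seen here. The members and gene lists were chosen with earlier results of these data known. Keratins with a mean of at least 1 RPM, the 2 most abundant below that in each group, and those with an unadjusted p under 0.05 by genotype or litter are named. Alternatives were pseudocounts of 0.1 and 0.5, other filters, scaling, blocks, limma voom and leaving out each library. Exon lengths, positions and 50-base words came from GENCODE vM21. Plots were drawn with matplotlib 3.10.9.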

Additional observations from a re-analysis of the deposited data

How the results depend on the processing

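By genotype no keratin passed limma's adjustment in any of the 16 alternatives. A single keratin was under an unadjusted p of 0.05 in the report. The number was 0 when genes had to average 5 RPM and in litter 1 alone, 3 with litter as a block, 4 of 42 with no filter (Krt19, Krt27, Krt28 and Krt36), 12 with the replicate block and 3 with the keratin sum as a covariate (added after seeing the data), beside 0.872%, 2.21%, 2.02%, 1.78%, 3.63% and 3.14% of all genes. It ran from 0 to 5 with 1 library left out. Between litters, the 5 reported was 9 with no filter and 3 with a pseudocount of 0.1, and 2 to 15 with 1 library of litter 1 left out, beside 18.1%, 20.9% and 12.1% to 29.4% of all genes. The cause was not tested, except that tests with fewer or more genes differ by construction.

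Replicate numbers come from the column names. Deviations of same-numbered libraries correlated, across genes, at -0.03, 0.75 and 0.50. Controls 2 and 3 correlated best with the mutant of their own number, but neither control 1 nor mutant 1 correlated best with its own. These values do not settle whether the numbers are pairs, and the main fit did not use them. Under the replicate block the Krt6a change had an unadjusted p of 9.80e-05 and an adjusted p of 0.506 (limma, Benjamini-Hochberg), and 12 keratins were under 0.05 unadjusted, beside 3.63% of all genes.

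With the keratin sum as a covariate, the values of Krt14 (-0.18) and Krt5 (-0.050) are near 0 by construction, since both make up most of that sum, and their signs carry nothing. Directions reversed in that fit for Krt1 (-0.084), Krt16 (-0.076), Krt4 (-0.12) and Krt75 (-0.28), and in litter 1 alone for Krt8 (-0.27). With 1 library left out, Krt1 ran from -0.040 to 0.24, Krt10 from -0.067 to 0.94, Krt222 from -0.13 to 0.78 and Krt8 from -0.13 to 0.33. For these the cause was not tested. The other 11 tested keratins, and the keratin sum (0.14 to 1.95), kept their direction throughout. The small number of keratin reads, 7284, limits shares in control 2 most, where 3 reads were 0.0412% of them. In reads on all genes mutant 3 was the shallowest library, not control 2.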

Other observations

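Across 5 of the 6 libraries the keratins of the inner root sheath and companion layer list together took a nearly constant share of keratin reads, although their 2 main members did not. The summed share was 0.725%, 0.728%, 0.718%, 0.717% and 0.658% in control 1, control 3, mutant 1, mutant 2 and mutant 3, and 0.0824% in control 2. Krt73 was the larger in control 1 and mutant 2, and Krt75 in the other 3 of these libraries. The share was noticed after the values were seen and has no test.

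Per 1000000 reads of the enamel list, Krt75 was at 508, 16.3 and 557 reads in controls 1 to 3 and 293, 276 and 1121 reads in mutants 1 to 3. Without control 2, where Krt75 had 1 read, this spread 4.06-fold.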
